A study of Mus musculus with 13 samples.

Results

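Interferon-stimulated genes are the genes whose transcription rises in cells that have sensed type I interferon. A list of 36 such genes was followed here across leukocytes of untreated mice, in which no infection or interferon had been given. Of the 36 genes, 34 had a probe set annotated to that gene alone on the array, and Isg15 and Ifi44 were not analysed. Each gene was represented by its single-gene probe set with the highest mean signal over the 13 arrays. A signal of at least 50 on all arrays of at least 1 population was reached by 33 of the 34, which were tested among 9380 genes in all. The gene that did not reach it was Mx2, whose highest signal was 74.0, on pDC array 2. The list was drawn up with earlier results of these data known.

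Gene expression was read on 13 Affymetrix whole-genome mouse arrays of 6 spleen populations of wild-type C57BL/6 mice. Plasmacytoid dendritic cells (pDCs, sorted as Lin-CD11c+120G8high), CD8α conventional DCs (cDCs, Lin-CD11chighCD8α+120G8-/low) and CD11b cDCs (Lin-CD11chighCD11b+120G8-/low) had 2 arrays each. Every one came from the pooled spleens of 10 to 15 mice. NK cells (NK1.1+TCRβ-) had 2 arrays of 6 to 10 mice each, CD8 T cells 2 arrays of 1 mouse each, and B cells 3 arrays, of 3 mice (replicate 1), 2 mice (replicate 2) and 1 mouse (replicate 3). The labels give an age of 6 to 8 weeks for the first CD8α cDC array and both CD8 T cell arrays and of 6 weeks for B cell replicates 2 and 3, and only those 2 B cell arrays are called follicular there. All groups share the strain, the organ and the absence of treatment, and there was no interferon-treated group and no mouse without the interferon receptor.

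Type I interferons bind a receptor made of the IFNAR1 and IFNAR2 chains, and the kinases JAK1 and TYK2 then pass the signal on. STAT2 and IRF9 are parts of the complex ISGF3, which binds the interferon-stimulated response element, a pair of GAAA repeats, in promoters such as those of the Ifit genes. The products of these genes block viral entry, transcription, translation and budding, and a low level of them is kept in healthy animals by traces of interferon and by factors such as IRF7 that a cell already holds.

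The promoters of 5 members that feature in the comparisons below are shown as examples, chosen among those that hold such a pair of GAAA repeats. Each line gives the 200 bases before the transcription start in RefSeq's GRCm38.p6 annotation, read 5′ to 3′ on the strand of the gene, with each match to GAAANNGAAA or its reverse complement TTTCNNTTTC in capitals.
Ifit1 (chr19:34640689-34640888, plus strand): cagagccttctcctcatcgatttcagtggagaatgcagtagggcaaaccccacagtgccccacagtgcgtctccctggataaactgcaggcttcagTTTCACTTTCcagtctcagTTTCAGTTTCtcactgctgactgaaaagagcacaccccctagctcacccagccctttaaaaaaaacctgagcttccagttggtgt
Ifit3 (chr19:34583329-34583528, plus strand): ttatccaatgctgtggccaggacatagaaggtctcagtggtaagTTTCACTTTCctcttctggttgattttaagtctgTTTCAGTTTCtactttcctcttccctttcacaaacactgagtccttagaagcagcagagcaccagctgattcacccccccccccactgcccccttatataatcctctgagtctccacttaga
Rsad2 (chr12:26456453-26456652, minus strand): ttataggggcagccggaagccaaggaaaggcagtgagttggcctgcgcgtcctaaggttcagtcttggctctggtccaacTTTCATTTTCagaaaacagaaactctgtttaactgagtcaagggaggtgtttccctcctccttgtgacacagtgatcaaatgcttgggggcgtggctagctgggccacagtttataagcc
Bst2 (chr8:71537473-71537672, minus strand): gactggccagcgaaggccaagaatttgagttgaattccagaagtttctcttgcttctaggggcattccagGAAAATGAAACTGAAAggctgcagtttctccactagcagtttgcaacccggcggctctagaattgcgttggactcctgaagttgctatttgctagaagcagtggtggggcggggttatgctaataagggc
Ddx60 (chr8:61927887-61928086, plus strand): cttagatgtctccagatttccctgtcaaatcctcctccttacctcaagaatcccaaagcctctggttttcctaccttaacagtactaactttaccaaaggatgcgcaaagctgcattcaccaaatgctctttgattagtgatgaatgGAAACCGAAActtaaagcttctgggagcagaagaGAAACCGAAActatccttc

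The match lay in both orientations and at different distances from the start. Its first base was 104 and 85 bases before the start of Ifit1, 156 and 122 before that of Ifit3, and 120 before that of Rsad2. In Bst2 a pair of matches overlapped at 130 and 124 bases before the start, and in Ddx60 they stood at 53 and 19 bases. Over the whole window of the annotation table, 250 bases before to 50 after the start, 12 of the 28 members with an entry held the match (42.9%), against 3.99% of 27025 genes. Among tested genes the share was 42.3% of 26 members, against 3.88% of 7675 genes. Besides the 5 genes shown, the match was found for Isg15, Eif2ak2, Ifitm2, Ifitm3, Lgals9, Trim21 and Trim30a. It was not found for Ifit2, Ifitm1 and Ifitm6, which also stand out in the comparisons below. A match is a description of letters and not evidence that a factor was bound.

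The arrays had a median signal of 13.5 to 20.8, and 49.1 to 58.3% of the probe sets of each array lay below 20, the floor at which signals were set before they were log2 transformed. Over the tested genes, arrays of the same population had correlations of 0.975 to 0.987, except for B cell replicate 1, which correlated at 0.934 with replicate 2 and at 0.935 with replicate 3. All DC arrays were scanned in 1 period, the NK and B cell arrays in a second and the CD8 T cell arrays in another, so population and scanning period cannot be told apart between DCs and lymphocytes or between CD8 T cells and the rest. The sum of 4 B cell markers was 14540 to 20392 on the B cell arrays and at most 490 elsewhere. The summed markers of the other populations likewise peaked in their own arrays, but not every single marker did. Spib, a pDC marker, was at 3448 on B cell replicate 1, against 3310 and 3207 in pDCs. Itgam, a CD11b cDC marker, was at 135 and 162 in NK cells, against 158 and 174 in CD11b cDCs. B cell replicate 2 goes against its label of male mice, with a signal of 4272 for Xist and 3.65 for the Y-linked gene Eif2s3y. The CD8 T cell arrays go against their label of female mice, with Eif2s3y at 690 and 968 and Xist at 0.963 and 0.877. Counts of members called are therefore given with and without B cell replicate 2, and so are the members whose call in B cells, in CD11b cDCs or between the cDC subsets changed without it. The NK cell arrays also carried Eif2s3y, at 384 and 346, with Xist at 0.805 and 0.732. All DC arrays carried Xist, at 1539 to 4503, with Eif2s3y at no more than 8.51. Apart from B cell replicate 2, sex by these transcripts therefore cannot be told apart from the divide between DCs and lymphocytes. In bulk samples such as these, fewer cells of a type and less RNA per cell cannot be told apart, and the number of arrays limits the precision.

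Across the 6 populations, 28 of the 33 tested members differed (limma F test, Benjamini-Hochberg adjusted p under 0.05), where 82.8% of all genes tested did, so that variation between the populations was no feature of these genes in particular. Without B cell replicate 2 the count was 31, where 79.8% of all genes differed. CD11b cDCs had the highest mean of any population for 14 of the 33 members, CD8 T cells for 6, pDCs for 5, CD8α cDCs for 4, B cells for 3 and NK cells for 1. One of the 3 in B cells was Ifit3, which without B cell replicate 2 was highest in CD11b cDCs. The lowest mean was found in CD8α cDCs for 13 members, in NK cells and CD8 T cells for 7 each, in B cells for 4, and in pDCs and CD11b cDCs for 1 each. Without B cell replicate 2, B cells were lowest for 7 members, Ifit2, Usp18 and Mx1 among them, and CD8α cDCs for 12. On all 13 arrays 16 members reached a signal of 50, among them Ifit2, Trim25, Trim30a, Ifi35 and Samhd1.

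**Figure D1:**
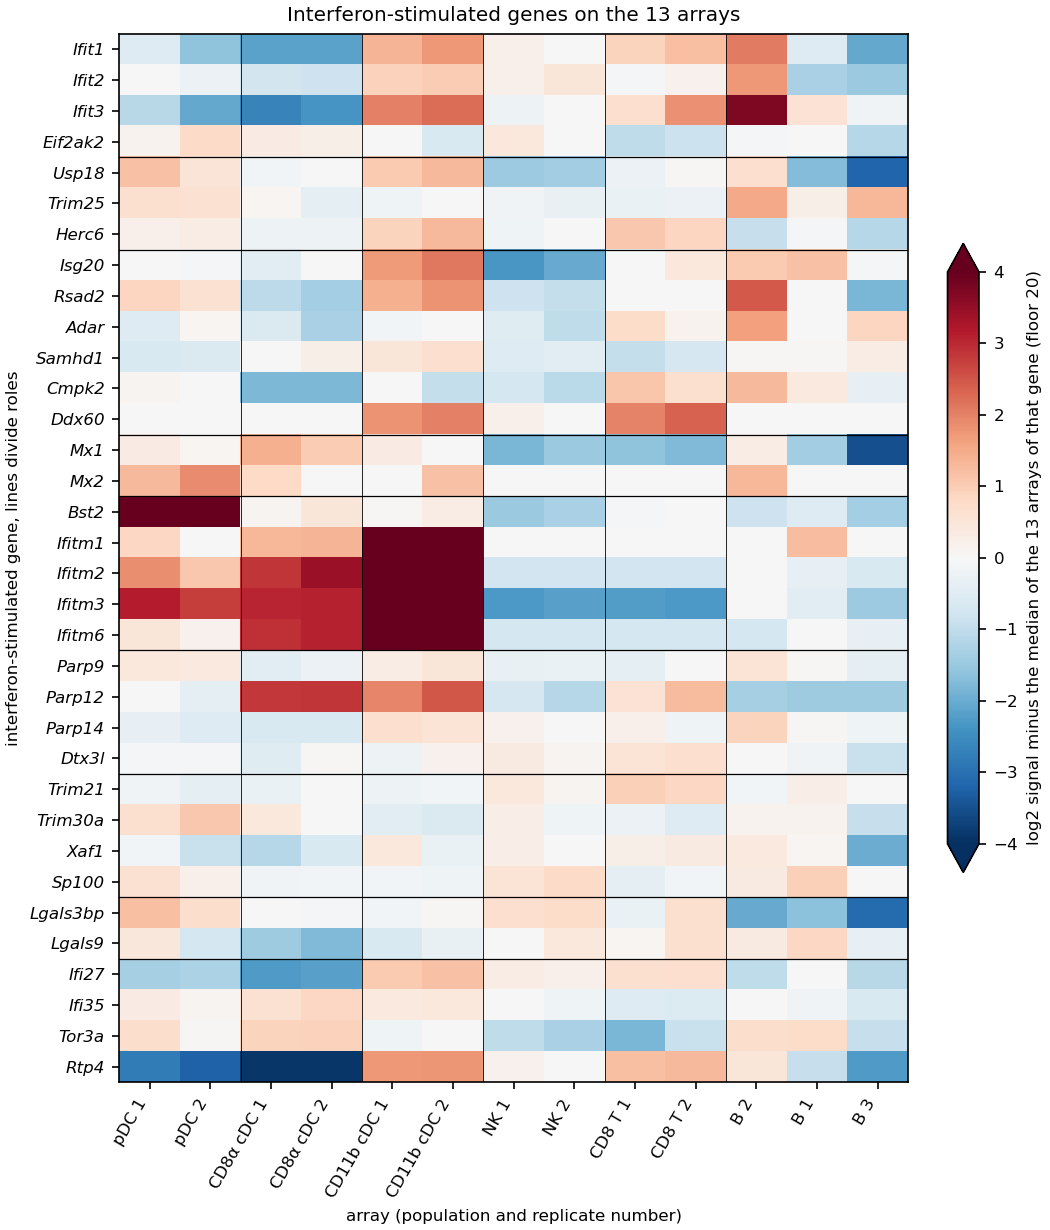
Each cell is the log2 signal (floor 20) of 1 gene on 1 array minus the median of that gene over the 13 arrays, for the 34 genes with a probe set, Mx2 included although it was not tested. Columns are arrays by population, with B cell replicate 2 left of replicates 1 and 3, and horizontal lines divide the roles. The 4 Ifitm genes are darkest in CD11b cDCs, Bst2 in pDCs, and Rtp4 and Ifit3 are most blue in CD8α cDCs, while B cell replicate 2 stands apart from replicate 3 in the Ifit genes, Usp18, Rsad2 and Mx1.

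Set against the mean of the other 5 populations, CD11b cDCs had 13 members higher and 0 lower (limma, adjusted p under 0.05), where 18.4% of all genes were called higher and 19.0% lower. The median member lay 0.86 above the other populations on the log2 scale, and the median of all genes lay at -0.05. In CD8α cDCs 7 members were higher and 9 lower, where 23.4 and 26.6% of all genes were. pDCs had 4 members higher and 8 lower, beside 18.6 and 21.6% of all genes. NK cells had 3 higher and 9 lower (25.4 and 24.5% of all genes), B cells 5 higher and 11 lower (22.6 and 28.0%), and CD8 T cells 7 higher and 9 lower (23.0 and 29.2%). The median member lay at -0.35 in CD8α cDCs, -0.34 in NK cells, -0.33 in B cells, 0.04 in pDCs and 0.05 in CD8 T cells, each as a log2 difference. The Gapdh 3′ to 5′ signal ratio, a sign of RNA quality, was 23.9 and 11.2 on the NK cell arrays, against 3.46 to 6.30 on all others, and its part in the NK cell values was not tested. These 6 comparisons share arrays, since each population is also part of the reference of the others.

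**Figure D2:**
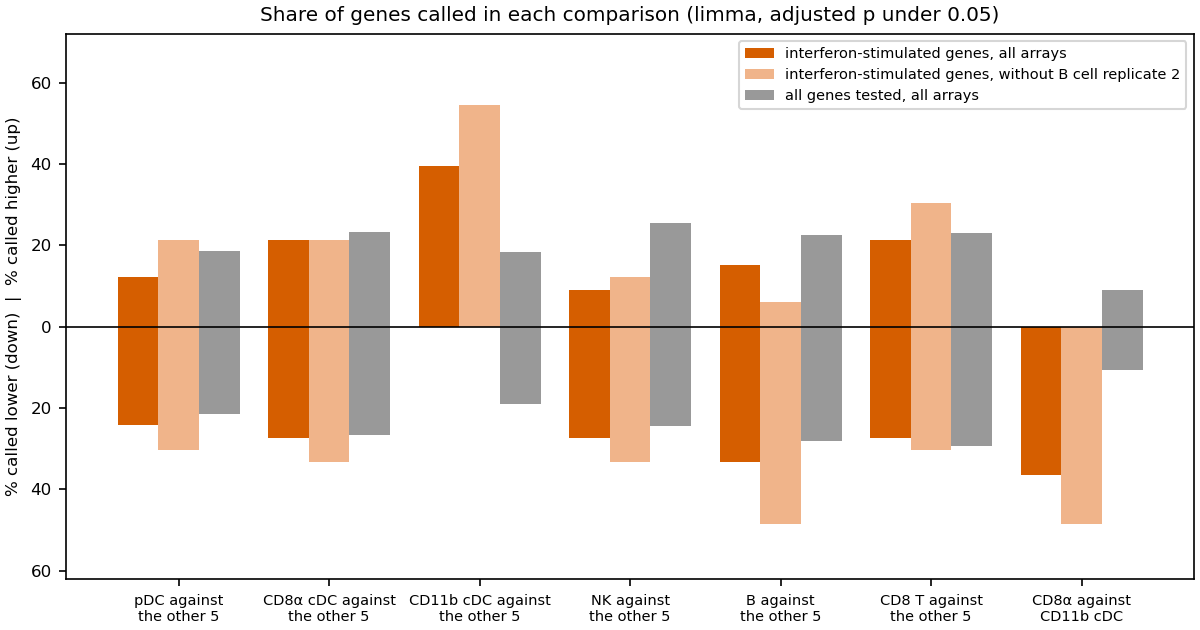
Bars give the percentage of genes called higher (upward) or lower (downward) in each comparison, for the 33 interferon-stimulated genes with all 13 arrays, for the same genes without B cell replicate 2, and for all 9380 genes tested. CD11b cDCs had 13 members called higher and none lower, and CD8α cDCs set against CD11b cDCs had none higher and 12 lower.

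Genes that act at the membrane had the 3 widest ratios between the highest and the lowest population mean, at least 183-fold for Ifitm3, 89.2-fold for Bst2 and at least 86.8-fold for Ifitm6, ahead of Rtp4 at no less than 49.5-fold, where the lowest mean of Ifitm3, Ifitm6 and Rtp4 was set to the floor. The Ifitm proteins sit in the plasma membrane and in endosomes and hinder the fusion of enveloped viruses. Ifitm3 had signals of 3587 and 3737 on the CD11b cDC arrays, against 878 and 671 in pDCs, 816 and 832 in CD8α cDCs, 20.9 and 16.6 in CD8 T cells, 13.7 and 21.8 in NK cells and 71.3, 98.6 and 35.95 in B cells (replicates 1, 2 and 3). The CD11b cDC arrays lay above all others, the other DCs formed a second tier, the B cells lay below them, and the NK and CD8 T cell arrays lay near the floor. The log2 difference from the mean of the other populations was 5.04 ± 0.28 (SE, adjusted p = 2.01e-07) in CD11b cDCs, 2.46 ± 0.28 (3.84e-05) in CD8α cDCs and 2.34 ± 0.28 (6.46e-05) in pDCs. It was -3.94 ± 0.28 (1.09e-06) in CD8 T cells and -3.90 ± 0.28 (1.09e-06) in NK cells, whose means lay at or just above the floor, so that the true differences may be larger. Among the 6 DC arrays alone Ifitm3 was lower in pDCs than in the mean of both cDC subsets, by -1.18 (adjusted p = 0.00388), since its place above the average in pDCs came from the lymphocytes.

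Ifitm6 and Ifitm1 were narrower. Ifitm6 reached 1608 and 1866 in CD11b cDCs, against 249 and 276 in CD8α cDCs, 45.6 and 36.5 in pDCs and 4.44 to 32.7 on the 7 lymphocyte arrays. Ifitm1 reached 921 on each of the CD11b cDC arrays, against 50.7 and 51.7 in CD8α cDCs, 35.2 and 16.4 in pDCs and 1.71 to 47.5 on the lymphocyte arrays. No other population overlapped with CD11b cDCs for either gene. The differences of CD11b cDCs from the other 5 populations were 5.42 ± 0.17 for Ifitm6 (adjusted p = 3.60e-09) and 5.09 ± 0.30 for Ifitm1 (2.85e-07). Ifitm2 followed with 599 and 693 in CD11b cDCs, against 245 and 376 in CD8α cDCs, 123 and 72.2 in pDCs and 4.87 to 34.0 on the lymphocyte arrays, a difference of 3.69 ± 0.22 (3.67e-07). These genes lie close together on chromosome 7 and resemble each other in sequence, and the share of each probe set's signal that comes from its neighbours was not tested.

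Bst2, or tetherin, holds budding virus particles at the cell surface, and its protein is the antigen of the 120G8 antibody by which pDCs were sorted, so its level in pDCs is a property of the gate. It had signals of 5780 and 4035 in pDCs, against 155 and 202 in CD8α cDCs, 149 and 177 in CD11b cDCs, 135 and 144 in CD8 T cells, 51.3 and 58.7 in NK cells and 101, 81.6 and 56.5 in B cells. pDCs lay far above all other arrays, and NK cells and B cell replicate 3 were lowest. As a description, the log2 difference of pDCs from the other populations was 5.44. Both cDC subsets were sorted as 120G8-/low, so their low level is set by the gate as well. The difference between them, 0.12, is likewise given as a description only.

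**Figure D3:**
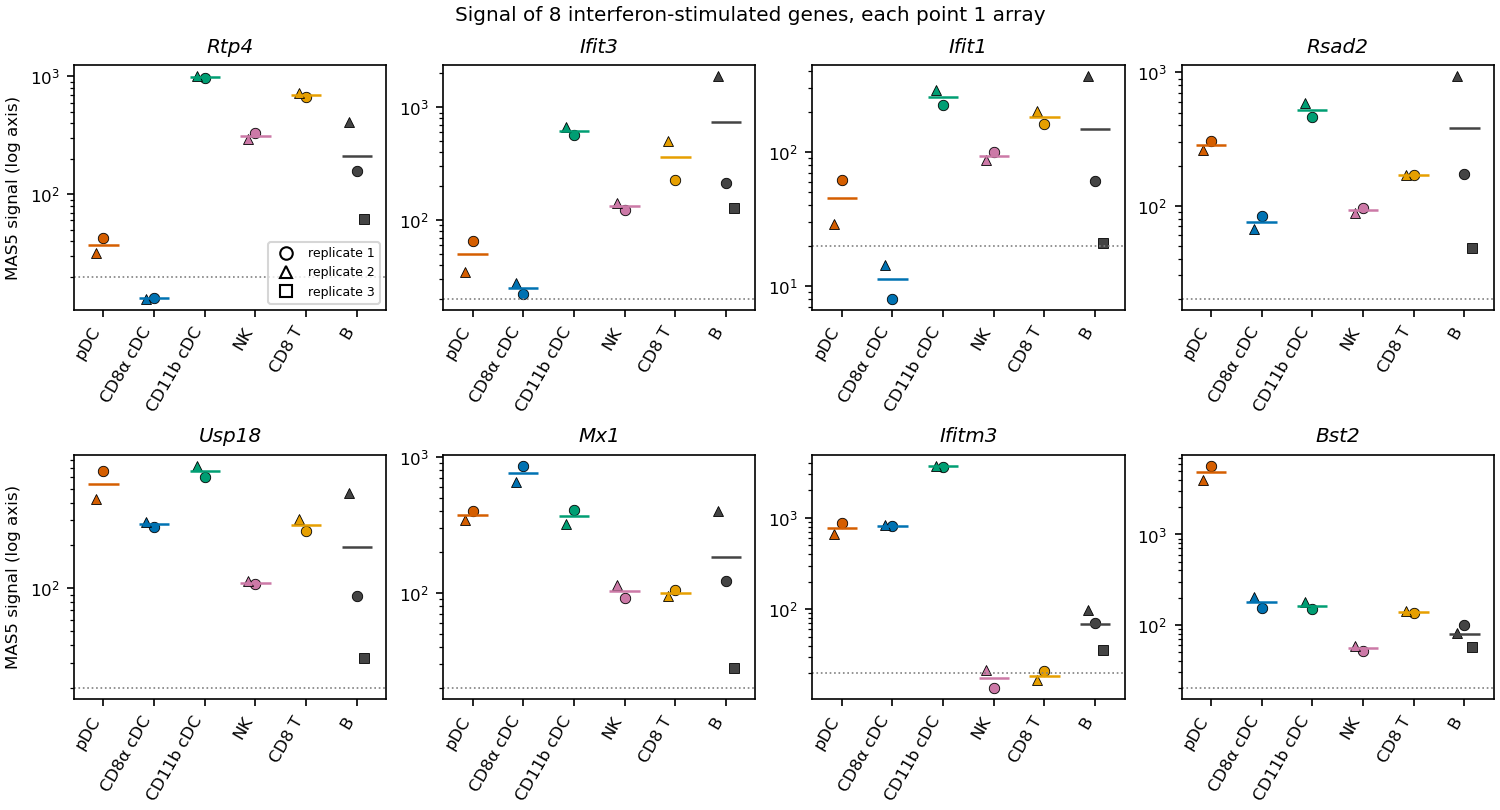
MAS5 signal (log axis) of 8 members, each point 1 array and each bar the mean of a population, with the floor of 20 dotted and the replicate number given by the symbol. Rtp4, Ifit3 and Ifit1 are lowest in CD8α cDCs, Ifitm3 is highest in CD11b cDCs at 3587 and 3737, Bst2 in pDCs at 5780 and 4035, and the triangle of B cell replicate 2 lies above both other B cell arrays for all but Bst2.

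The Ifit proteins bind viral RNA with foreign 5′ ends and keep it from being translated. Ifit3 had signals of 574 and 670 in CD11b cDCs, against 65.1 and 34.5 in pDCs, 22.3 and 27.7 in CD8α cDCs, 225 and 501 in CD8 T cells, 123 and 141 in NK cells and 212, 1886 and 128 in B cells. CD8α cDCs were lowest and did not overlap with any other population, and the single highest array was B cell replicate 2. Against the other 5 populations, Ifit3 was higher in CD11b cDCs by 2.44 ± 0.75 (adjusted p = 0.0251) and lower in CD8α cDCs, by -3.13 ± 0.75 (0.00548). The call in CD11b cDCs was lost under 7 alternatives, those without either of their arrays included, and the mouse genome holds a close copy of Ifit3 that the probe set may also read.

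Ifit1 was at 225 and 290 in CD11b cDCs, against 8.06 and 14.4 in CD8α cDCs, 61.7 and 28.9 in pDCs, 161 and 204 in CD8 T cells, 101 and 87.7 in NK cells and 60.7, 367 and 21.1 in B cells. CD8α cDCs lay below the floor on both arrays and were lower than the other populations by -2.42 ± 0.74 (adjusted p = 0.0187), a call lost without either of their arrays. Ifit2 ran the same way between the cDC subsets, at 638 and 687 in CD11b cDCs, against 202 and 191 in CD8α cDCs, and did not pass the F test (adjusted p = 0.401). Its values on the B cell arrays ran from 122 to 1133, and without B cell replicate 2 the F test gave an adjusted p of 1.56e-05. Eif2ak2, which encodes the kinase PKR that stops translation when it meets double-stranded RNA, stayed between 16.8 and 74.6 on all arrays and was lower in CD8 T cells, at 21.8 and 24.4, by -0.98 ± 0.29 (0.0158), a call lost without either CD8 T cell array.

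Isg15 is a ubiquitin-like protein that is attached to other proteins after interferon, and 3 tested members act on that conjugation. Usp18, the protease that removes Isg15 and also dampens the interferon receptor, was at 87.9, 469 and 32.4 in B cells, against 660 and 420 in pDCs, 270 and 292 in CD8α cDCs, 608 and 726 in CD11b cDCs, 251 and 305 in CD8 T cells and 107 and 112 in NK cells. B cells were lower than the other populations by -1.50 ± 0.58 (adjusted p = 0.0493), although replicate 2 lay within the range of the DCs. That call was lost under 17 alternatives, and without replicate 2 the difference was -2.55 ± 0.31 (0.000143). Herc6, the mouse ligase for Isg15, was highest in CD11b cDCs at 257 and 340 and in CD8 T cells at 298 and 256, against 63.6 to 172 on all other arrays. It was higher in CD11b cDCs by 1.03 ± 0.24 (0.00587) and in CD8 T cells by 0.91 ± 0.24 (0.00811), and the first of these calls was lost without CD11b cDC replicate 2. Trim25, a ubiquitin ligase of the RIG-I pathway, was highest in B cells at 2225, 5393 and 4711, against 1453 to 2908 elsewhere (1.05 ± 0.23, 0.00307), and there replicate 1, not replicate 2, stood apart and lay within the range of the other populations.

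Among the enzymes of nucleotides and nucleic acids, Rsad2 (viperin), which makes a chain-terminating nucleotide, was at 460 and 587 in CD11b cDCs, 305 and 262 in pDCs, 83.0 and 66.7 in CD8α cDCs, 170 and 169 in CD8 T cells, 96.3 and 88.2 in NK cells and 173, 934 and 47.8 in B cells. The replicates of every other population lay close together, the B cell arrays spanned the whole range, and the F test gave an adjusted p of 0.124. Without B cell replicate 2 it gave 0.00183. Cmpk2, whose product works beside viperin on cytidine nucleotides and whose gene lies next to Rsad2, was at 18.4 and 12.1 in CD8α cDCs, against 32.9 to 172 on all other arrays (-1.80 ± 0.35, 0.00156). It was higher in CD8 T cells, at 151 and 107, by 1.40 ± 0.35 (0.00642).

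Isg20, an exonuclease for RNA, had signals of 593 and 772 in CD11b cDCs, 133 to 183 in the other DCs, 173 to 408 in B cells, 177 and 241 in CD8 T cells and 35.7 and 45.1 in NK cells. CD11b cDCs and NK cells stood at the opposite ends with no overlap, at 2.20 ± 0.29 (adjusted p = 0.000135) and -2.69 ± 0.29 (2.35e-05). Ddx60, a helicase that works with RIG-I, was above the floor on both arrays of only CD11b cDCs (69.05 and 80.9) and CD8 T cells (79.8 and 102). The differences were 1.45 ± 0.13 (7.78e-06) in CD11b cDCs and 1.77 ± 0.13 (1.48e-06) in CD8 T cells, and the remaining arrays lay at 1.61 to 23.05, so that these are bounds set by the floor. Samhd1, which degrades deoxynucleotides, was highest in CD11b cDCs at 3376 and 3858 (0.89 ± 0.14, 0.00042) and lowest in CD8 T cells at 1271 and 1521 (-0.76 ± 0.14, 0.000889). The other 4 probe sets of Samhd1 correlated with the one used at -0.49 to 0.77 over the 13 arrays, and with the mean over all of them the call in CD11b cDCs was lost and the difference in CD8 T cells turned to 0.60 (0.0252). Adar, which edits double-stranded RNA, was higher in B cells by 1.14 ± 0.31 (0.0105), with 894 on replicate 2 against 285 and 515 on replicates 1 and 3. That call was lost without replicate 2 (adjusted p = 0.0667), and the other probe sets of Adar correlated with the one used at only 0.45 and 0.19.

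The dynamin-like GTPase Mx1 had another order. It was at 864 and 651 in CD8α cDCs, against 408 and 322 in CD11b cDCs, 402 and 343 in pDCs, 105 and 94.2 in CD8 T cells, 91.5 and 115 in NK cells and 123, 398 and 28.0 in B cells. CD8α cDCs were highest with no overlap (2.12 ± 0.66, adjusted p = 0.0213), a call that was lost without either of their arrays. C57BL/6 mice carry an Mx1 allele with a deletion that leaves no working protein, so the signal speaks of the transcript alone. Mx2, at 48.9 and 74.0 in pDCs and 50.2 on B cell replicate 2, was below 50 on every other array.

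Poly-ADP-ribose polymerase family members carry ADP-ribose to proteins and several restrict viruses. Parp12 was at 380 and 389 in CD8α cDCs and at 209 and 302 in CD11b cDCs, against 53.8 and 41.8 in pDCs, 80.0 and 128 in CD8 T cells, 34.0 and 24.5 in NK cells and 11.5 to 21.3 in B cells. Both cDC subsets stood above every other array, by 2.71 ± 0.21 (adjusted p = 1.87e-06) for CD8α cDCs and 1.97 ± 0.21 (2.63e-05) for CD11b cDCs, and B cells stood lowest at -2.38 ± 0.18 (1.46e-06). Parp14 was higher in CD11b cDCs, at 882 and 804 (0.76 ± 0.23, 0.0226), and lower in CD8α cDCs, at 358 and 357 (-0.73 ± 0.23, 0.0212), and each call was lost without either array of its subset. Parp9 and its partner ligase Dtx3l are transcribed from neighbouring genes and did not pass the F test (0.0731 and 0.0688), with ranges of 457 to 895 and 277 to 813. Without B cell replicate 2 both passed it, at 0.0182 and 0.0425.

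Of the others, Rtp4, a chaperone that brings receptors to the cell surface, had the widest gap between the cDC subsets. Its signals were 13.1 and 12.97 in CD8α cDCs, against 977 and 1001 in CD11b cDCs, 42.7 and 31.6 in pDCs, 675 and 719 in CD8 T cells, 331 and 295 in NK cells and 157, 410 and 61.5 in B cells. The populations formed an order with no overlap except among the B cells, from CD8α cDCs below the floor through pDCs, NK cells and CD8 T cells to CD11b cDCs. Against the other 5 populations the difference was 3.04 ± 0.48 (adjusted p = 0.000516) in CD11b cDCs, 2.43 ± 0.48 (0.00166) in CD8 T cells, -2.66 ± 0.48 (0.00116) in pDCs and -3.72 ± 0.48 (9.40e-05) in CD8α cDCs. Ifi27 followed the same order, at 149 and 160 in CD8α cDCs, 284 and 295 in pDCs, 884 and 833 on the NK cell arrays, 1117 and 1144 in CD8 T cells and 1471 and 1602 in CD11b cDCs, with 332 to 716 in B cells. It was lower in CD8α cDCs by -2.22 ± 0.23 (2.13e-05) and higher in CD11b cDCs by 1.76 ± 0.23 (0.000148). Tor3a ran the other way, at 240 and 245 in CD8α cDCs, against 114 and 129 in CD11b cDCs, and was higher in CD8α cDCs than in the other populations (1.33 ± 0.39, 0.0167), a call lost without either CD8α cDC array. The probe sets of Ifi27, Ifi35, Tor3a and Trim25 are of a kind that can match several transcripts.

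The lectins and the TRIM and nuclear body genes come last. Lgals3bp, a secreted glycoprotein that binds galectins, was at 566 and 402 in pDCs, against 231 to 253 in both cDC subsets, 395 and 412 on the NK cell arrays, 207 and 381 in CD8 T cells and 29.2 to 79.4 in B cells. B cells lay below all other arrays (-2.60 ± 0.27, adjusted p = 2.26e-05), and pDCs were higher than the mean of the others by 1.24 ± 0.32 (0.0106). Lgals9 (galectin-9) was lowest in CD8α cDCs at 125 and 98.1 (-1.64 ± 0.33, 0.0018). Trim30a was highest in pDCs at 2752 and 3721 (1.03 ± 0.27, 0.0103), and Trim21, the cytosolic antibody receptor, in CD8 T cells at 667 and 609 (0.92 ± 0.15, 0.000485). Without 1 array of the population, the calls of Lgals3bp and Trim30a in pDCs and of Cmpk2 and Herc6 in CD8 T cells were lost. Sp100 was higher in NK cells at 435 and 498 (0.59 ± 0.21, 0.039), a call lost under 10 alternatives, those without either NK cell array and without B cell replicate 2 (adjusted p = 0.0526) included, and Xaf1 did not pass the F test (0.432).

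CD8α and CD11b cDCs were scanned in the same period, and their direct comparison asked whether the subsets hold different basal levels of these genes. None of the 33 members was higher in CD8α cDCs and 12 were lower (limma, adjusted p under 0.05), where 8.96% of all genes were called higher and 10.6% lower. The median member lay at -1.09 on the log2 scale, and the median of all genes at 0.00. The 6 largest differences among the called members were those of Rtp4 (-5.63 ± 0.62, adjusted p = 6.57e-05), Ifit3 (-4.64 ± 0.97, 0.00606), Ifitm1 (-4.17 ± 0.38, 1.78e-05), Ifit1 (-3.68 ± 0.95, 0.0200), Ifi27 (-3.31 ± 0.30, 1.59e-05) and Ifitm6 (-2.72 ± 0.22, 7.51e-06). Rsad2 lay at -2.80 ± 0.95 and did not pass (0.0648). The differences of Rtp4 and Ifit1 are bounds, because both CD8α cDC arrays lay below the floor. Ifitm3, Isg20, Ddx60, Herc6, Parp14 and Ifitm2 were the other 6, at -2.15 to -1.09. The calls of Ifit1 and Parp14 were lost without any 1 of the 4 cDC arrays, that of Ifit3 without CD8α cDC replicate 1 or CD11b cDC replicate 2, and those of Herc6 and Ifitm2 each without any 1 of 3 of the arrays. The genes with a positive difference, among them Mx1 at 1.05 ± 0.86, Tor3a at 1.00 ± 0.51 and Parp12 at 0.61 ± 0.27, did not pass the test.

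**Figure D4:**
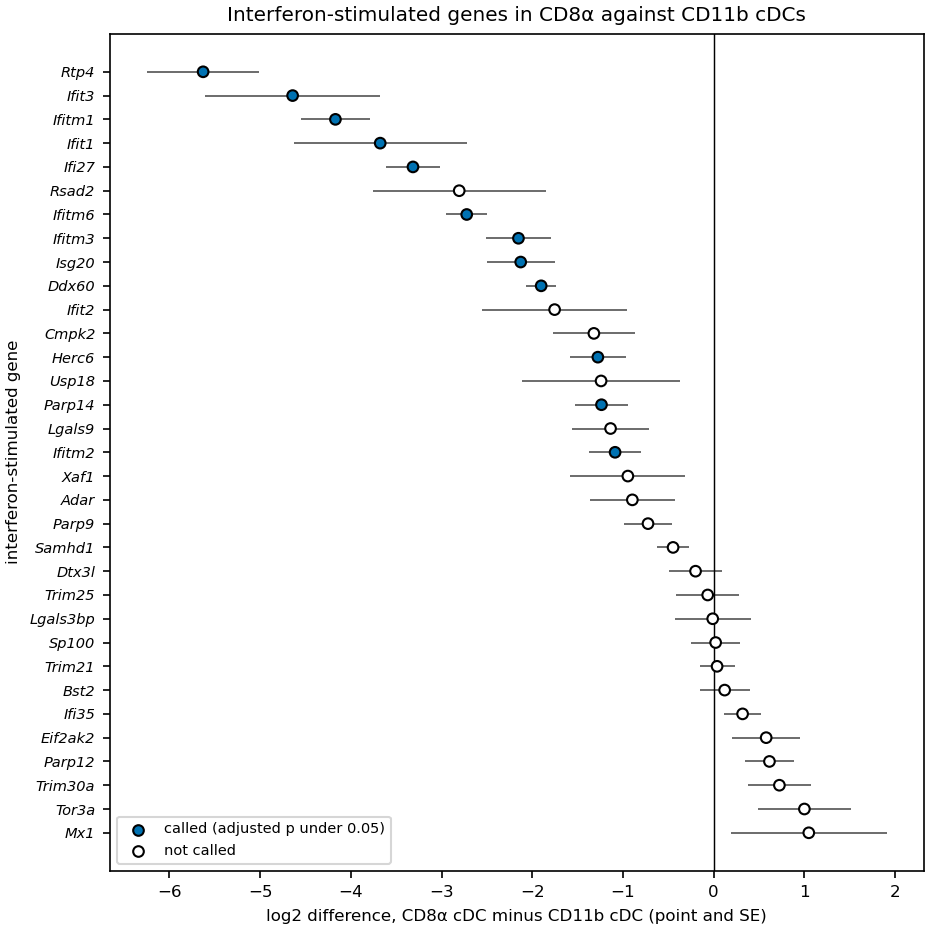
Points give the log2 difference of CD8α cDCs minus CD11b cDCs for the 33 tested members, with the SE from limma, filled where the adjusted p was under 0.05. The 12 filled points all lie left of 0, from Rtp4 at -5.63 to Ifitm2 at -1.09, and Mx1, Tor3a and Trim30a lie right of 0 without passing the test.

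The count of 12 changed with the arrays used. It was 7 without CD8α cDC replicate 1 or without CD11b cDC replicate 2, and 16 without B cell replicate 2. With the 6 DC arrays alone, 15 were lower and 1 was higher. The share of all genes was not worked out there or for the fits without a cDC array. These shifts are therefore not known to be particular to the members. Beside the members, the CD11b cDC arrays carried more signal of a list of macrophage and monocyte markers. Their sum over 6 measured genes was 4851 and 5309 in CD11b cDCs, against 498 and 591 in CD8α cDCs, and was at most 805 on all other arrays. Most of it came from Csf1r (3187 and 3473 in CD11b cDCs, against 247 and 349 in CD8α cDCs) and Adgre1 (1300 and 1505, against 42.6 and 51.5), while C1qa, C1qb and C1qc were at 58.3 to 136 in CD11b cDCs, against 1.47 to 17.0 in CD8α cDCs. The remaining gene, Vcam1, went the other way, at 75.9 and 84.2 in CD11b cDCs, against 170 and 171 in CD8α cDCs. The study lists Csf1r itself in the signature shared by mouse CD11b and human BDCA1 cDCs. The part of macrophages or monocytes in the differences between the cDC subsets was not tested.

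The 3 B cell arrays were then set against one another, with no test, as each comparison holds 1 array on either side. Replicate 2 was at least 2-fold above replicate 3 for 16 of the 33 members and below it by as much for none, where 1.22% of all genes tested were above and 1.04% below. At a threshold of 8-fold, 6 of the 9 genes found among all 9380 were members. Rsad2 differed 19.5-fold, Ifit1 17.4-fold, Ifit3 14.7-fold, Usp18 14.5-fold, Mx1 14.2-fold and Ifit2 9.27-fold. The 3 genes that were no members were Xist, Mid1 and Slfn5. Ranked by this difference over all genes, members took 7 of the first 10 places and 8 of the first 20, with Rtp4 at 6.67-fold in place 10 and Xaf1 at 5.22-fold in place 13. In places 11 and 12 stood Oasl2 and Oasl1, which belong to the interferon-induced oligoadenylate synthetase family and were not on the list.

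**Figure D5:**
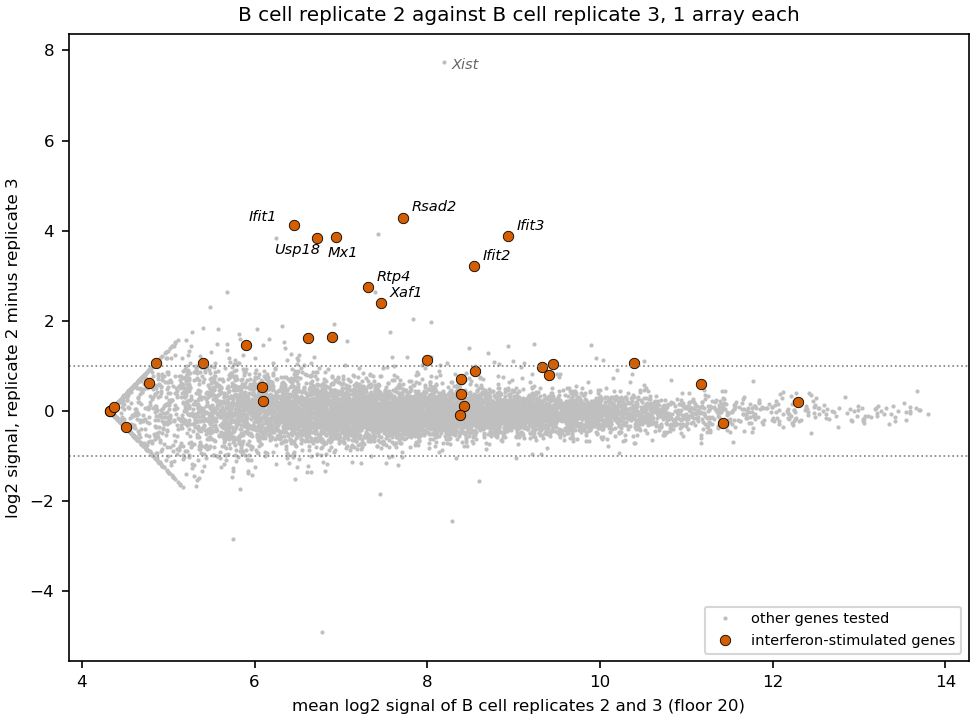
Each point is 1 of the 9380 genes tested, with the mean log2 signal of B cell replicates 2 and 3 on the horizontal axis and replicate 2 minus replicate 3 on the vertical axis, and dotted lines at a 2-fold difference. Of the 33 members, 16 lie on or above the upper line and none on or below the lower one, and Rsad2, Ifit1, Ifit3, Usp18 and Mx1 stand near a difference of 4.

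Replicate 2 was at least 2-fold above replicate 1 for 9 members and below it for 2 (Ifi27 and Ifitm1), where 4.82% of all genes were above and 7.71% below. Replicate 1 was above replicate 3 for 15 members and below it for 1, Trim25, where 7.43 and 5.38% of all genes were. The order was therefore replicate 2, replicate 1, replicate 3 for Ifit1 (367, 60.7 and 21.1), Usp18 (469, 87.9 and 32.4), Rsad2 (934, 173 and 47.8), Mx1 (398, 123 and 28.0) and Rtp4 (410, 157 and 61.5). Replicate pairs of the other populations were closer. At least 2-fold apart were 2 members in pDCs, 1 in CD8 T cells and 0 in CD8α cDCs, CD11b cDCs and NK cells, where 0.981 to 3.61% of all genes were. Not all members were apart on the B cell arrays, since Trim21, Samhd1, Trim25 and Ifi27 had ratios of 0.83 to 1.14 between replicates 2 and 3.

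Several other values moved with these arrays. Replicate 2 held 2 mice and replicate 3 a single mouse of the same labelled age, both were prepared from 50 ng of RNA on the same chip lot, and they were scanned on different days. Replicate 1 held 3 mice, was prepared from 100 ng and was scanned on the day of replicate 2. Xist was at 4272 on replicate 2, against 1.05 and 0.897 on replicates 1 and 3, and Eif2s3y at 3.65, against 649 and 605. Xist was also present on all 6 DC arrays, at 1539 to 4503, and was at 0.805 and 0.732 on the NK cell arrays. Of cell type markers, replicate 1 had the plasma cell gene Jchain at 7866 and the marginal zone gene Cr2 at 2916, against 92.1 and 271 on replicate 2 and 332 and 214 on replicate 3. The other genes of these lists did not follow. Sdc1, also a plasma cell gene, was at 82.8 on replicate 1, against 182 and 241 on replicates 2 and 3. The marginal zone gene Cd9 was at 131, 98.2 and 111 on replicates 1, 2 and 3. The follicular gene Fcer2a was highest on replicate 1, at 2070, against 743 and 1181 on replicates 2 and 3. The granulocyte genes all shared 1 order, highest on replicate 1 and lowest on replicate 2. On replicates 1, 2 and 3, S100a8 was at 438, 27.2 and 128, S100a9 at 308, 23.8 and 97.3, and Ltf at 142, 0.973 and 30.4. The part of mouse, sex, handling or cell mixture in the difference between replicates 2 and 3 was not tested.

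With B cell replicate 2 left out of the fit, CD11b cDCs had 18 members higher and 0 lower, where 18.1 and 18.7% of all genes were. B cells had 2 higher and 16 lower (17.8 and 22.1% of all genes), and CD8 T cells 10 of each (22.8 and 29.4%). pDCs had 7 higher and 10 lower (18.3 and 21.2%), CD8α cDCs 7 and 11 (23.0 and 26.5%) and NK cells 4 and 11 (25.1 and 24.5%). In CD8α against CD11b cDCs 0 were higher and 16 lower (8.86 and 10.6%). In CD11b cDCs the 5 genes gained were Ifit1 (2.21 ± 0.36, adjusted p = 0.00096), Ifit2 (1.34 ± 0.14, 4.47e-05), Usp18 (1.82 ± 0.31, 0.00122), Rsad2 (2.06 ± 0.36, 0.00141) and Parp9 (0.51 ± 0.16, 0.0302). Between the cDC subsets the 4 gained were Rsad2 (-2.80 ± 0.46, 0.00180), Ifit2 (-1.75 ± 0.18, 6.96e-05), Cmpk2 (-1.32 ± 0.34, 0.0215) and Parp9 (-0.72 ± 0.21, 0.0338). In CD8 T cells Ifit1 and Ifit3 were each higher by 1.61 (0.00445 and 0.00224). In B cells the calls of Isg20, Adar and Cmpk2 as higher were lost, and Ifit2 (-1.48 ± 0.14, 2.59e-05), Mx1 (-2.11 ± 0.41, 0.00286), Ifit1 (-1.19 ± 0.36, 0.0254), Rtp4 (-0.82 ± 0.28, 0.0388) and Dtx3l (-0.62 ± 0.21, 0.0436) were called lower. The calls of these 8 genes in B cells thus changed with replicate 2. They did not all hang on it alone, since that of Isg20 was also lost without replicate 1, and those of Cmpk2 and Adar under further alternatives.

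Of the 12 members called lower in CD8α than in CD11b cDCs, 6 (50%) were at least 2-fold above in B cell replicate 2, against 48.5% of all 33 tested members, so the share among the called ones was that of the list. The 6 made up 37.5% of the 16 that were apart on the B cell arrays. They were Ifit1, Ifit3, Ifitm3, Isg20, Parp14 and Rtp4, of which Ifitm3 was higher in CD8α cDCs than in the mean of the other 5 populations. Ifitm1, Ifitm2, Ifitm6, Ifi27, Herc6 and Ddx60 were called between the cDC subsets and less than 2-fold apart between the B cell arrays. Mx1, Usp18, Rsad2 and Xaf1 were among the 10 that were apart on the B cell arrays and not called between the cDC subsets. The motif GAAANNGAAA was found in the windows of 6 of the 11 B cell genes with an entry and of 5 of the 15 other tested members, and these shares were not tested.

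The pathway that reads interferon was followed in a second list of 19 genes, of which 18 had a probe set and 16 were tested. Between the populations, 14 of the 16 differed, beside 82.8% of all genes. pDCs had 5 higher and 4 lower, where 18.6 and 21.6% of all genes were, with the receptor chain Ifnar2 at 2446 and 1921, against 174 to 937 on all other arrays, and Irf7, the master factor of interferon production, at 1423 and 1133, against 133 to 558. Stat2, a part of ISGF3, was at 229 and 240 in pDCs, 49.2 and 53.0 in CD8α cDCs and 129 and 142 in CD11b cDCs. In CD8α against CD11b cDCs, 1 gene of this list was higher and 5 were lower, where 8.96 and 10.6% of all genes were. Stat2 was lower, by -1.41 ± 0.41 (adjusted p = 0.0326), and so were Ifnar2 (-0.67 ± 0.21, 0.0456), Irf1, Socs3 and Jak2. The kinase Tyk2 was higher (0.75 ± 0.21, 0.0269). Irf9, also a part of ISGF3, was not called, at 456 and 410 in CD8α cDCs and 425 and 482 in CD11b cDCs. Ifnar1 and Irf7 were not called either. On the B cell arrays Irf7 was at 520 on replicate 2, against 204 and 133 on replicates 1 and 3, and Stat2 at 137, against 88.8 and 47.9. The ligand Ifnb1 did not reach a signal of 50 on any array, with 4.38 to 26.1, and the interferon gamma gene Ifng was high in NK cells alone, at 2717 and 3721, against 1.50 to 196 elsewhere.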

How the data were processed

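Per the study's methods, RNA was amplified in 2 rounds and hybridised to Affymetrix whole-genome mouse arrays. The deposited intensity values come from the MAS5 algorithm, with which the authors scaled every array to a target of 100. The values are linear and have no floor. Two-round amplification favours 3′ ends, and the Gapdh 3′ to 5′ signal ratio was 23.9 and 11.2 on the NK cell arrays and 3.46 to 6.30 on the others. The platform annotation names 1 gene for 34958 of the 45101 probe sets, several for 932 and none for 9211, which gave 18194 genes. Signals were floored at 20 and log2 transformed, and genes with at least 50 on all arrays of at least 1 population were kept. All tests came from 1 limma model (R 4.3.3, limma 3.58.1) of the 6 populations, which left 7 residual degrees of freedom, and were two-sided, with Benjamini-Hochberg adjustment over 9380 genes and a threshold of 0.05. It was tested on simulated data. Differences are log2, tested population minus the mean of the other 5, or CD8α minus CD11b cDCs.

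The members and both gene lists were chosen with earlier results of these data known, and members given with full statistics are the called ones with the largest differences, at most 6 each way per comparison, and further members chosen after their values were seen. The alternatives were quantile normalization, floors of 10 and 50, no filter, an intensity trend, the mean over all probe sets, the scan day and the replicate number as blocks, the 6 DC arrays alone and each array left out. DC and NK duplicates were independent sorts, whereas nothing says so for the other replicates, so p-values measure the spread between these arrays.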

Additional observations from a re-analysis of the deposited data

How the results depend on the processing

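Of 2061 alternative values for the members called in each comparison, 1886 kept their direction and side of the threshold, 173 kept the direction without passing, and 2 reversed: Ifitm3 in pDCs, at -1.18 with the 6 DC arrays alone, and Samhd1 in CD8 T cells, at 0.60 with the mean over all probe sets. Without a filter on low signals, 16 members (not 28) differed between the populations and 7 (not 12) between the cDC subsets, and the cause was not tested. With the 6 DC arrays alone, pDCs had 19 members called, 7 higher and 12 lower, which compares them with the cDC subsets only, and the cDC subsets had 16, 1 of them higher. Leaving out 1 array at a time gave 20 to 32 members differing between the populations, and 7 to 17 called in pDCs (7 without pDC replicate 2), 10 to 19 in CD8α cDCs (10 without CD8α cDC replicate 1), 10 to 18 in CD11b cDCs, 8 to 17 in NK cells, 14 to 18 in B cells, 11 to 20 in CD8 T cells and 7 to 16 between the cDC subsets. At 3-fold in place of 2-fold, B cell replicate 2 was apart from replicate 3 for 10 members and from replicate 1 for 7, and replicate 1 from replicate 3 for 4. With the replicate number as a block, 30 members differed, and 12 were called in pDCs, 19 in CD8α cDCs, 17 in CD11b cDCs (16 higher), 17 in NK cells, 16 in B cells, 19 in CD8 T cells and 15 between the cDC subsets. Among these refits, the share of all genes called was worked out only for the fit without B cell replicate 2. The other shifts in count are therefore not known to be particular to the members. Arrays with the same number deviated from their population means with a correlation of -0.20 to 0.18, above 0.1 in 4 of 15 pairs of populations. These correlations cannot settle whether arrays were paired by sort, because a swapped number would give a negative value. Signals below 20 have no order, which limits Rtp4, Ifit1, Cmpk2 and Ddx60 in CD8α cDCs and the Ifitm genes in lymphocytes.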
